A study of Homo sapiens with 2 samples.

Results

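The ADAM and ADAMTS genes are 2 related groups of zinc-dependent metalloproteinases. Members were the probe sets, each a small group of oligonucleotides on the array that reads 1 transcript region, whose platform gene symbol is ADAM or ADAMTS followed by a number. There were 96 such probe sets for 40 genes, out of 54675 probe sets and 19775 singly named genes in all. They comprised 18 ADAM genes (50 probe sets), 18 ADAMTS genes (40 probe sets) and 4 ADAM pseudogenes (6 probe sets). ADAMTSL genes, ADAMDEC1, antisense genes and probe sets listing several genes were not members.

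Total RNA was measured on Affymetrix expression arrays in MDA-MB 231 cells, an estrogen receptor-negative line from a human breast cancer that is described as highly invasive. The S100A7 cells had been stably transfected with S100A7 in the plasmid pIRES2-EGFP (1 array), and the vector cells with pIRES2-EGFP without an insert (1 array). Both therefore carried the EGFP plasmid, and both were grown in DMEM with 10% serum at 37 °C and 5% CO2. The labels do not say whether each stable line was 1 clone or a pool, so differences between separately selected lines and differences due to S100A7 cannot be told apart. The S100A7 probe set read 13232 in S100A7 cells and 12.0 in vector cells. All 6 markers listed as high in this line were measured, and none was 2-fold apart. VIM read 35575 in S100A7 cells and 38087 in vector cells, and CD44 read 12481 in S100A7 cells and 11465 in vector cells. The widest difference among them was that of FN1, fibronectin, at 864 in S100A7 cells and 1312 in vector cells (1.52-fold lower), with all 5 probe sets lower (log2 ratios from -1.18 to -0.31), followed by S100A4 (1.36-fold higher). ESR1, PGR and CDH1 lay below the floor described next on both arrays, whereas EPCAM (513 in S100A7 cells, 544 in vector cells) and ERBB2 (539.8 in S100A7 cells, 497 in vector cells) lay above it.

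Values are MAS5 intensities on a linear scale. Each array's median over its probe sets other than controls, 69.0 for the S100A7 array and 71.0 for the vector array, served as a floor, since no detection calls were used. A probe set counted as measured if either array put it at or above the floor. Readings under the floor were set to it, and a fold computed with 1 such reading is a bound, given as "at least". A gene's value is that of its brightest measured probe set. With 1 array per group there is no replicate error, no test and no p-value, and no difference here has been set against the spread between cultures. The only spread at hand is that between probe sets of 1 gene, whose pooled standard deviation of log2 ratios was 0.36 over 6465 genes.

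ADAM proteins are mostly membrane-anchored. Their metalloproteinase domain cuts other membrane proteins close to the cell surface, a step called ectodomain shedding that releases growth factors, cytokines and receptor fragments, and their disintegrin domain can bind integrins. ADAMTS proteins are secreted, carry thrombospondin type repeats, and act on extracellular matrix: they cleave proteoglycans such as versican and aggrecan, trim procollagens, or process von Willebrand factor. Both groups are made as inactive precursors whose prodomain is commonly removed by furin-like enzymes.

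In S100A7 cells, a minority of these genes stood apart from vector cells, and they went both ways. ADAMTS6 was 2.83-fold lower and ADAM33 at least 3.61-fold lower. ADAMTS9 was at least 2.03-fold higher, and ADAM9 was 1.99-fold higher, just under the 2-fold line. ADAM33 reached the floor on the vector array only and ADAMTS9 on the S100A7 array only, so their directions came largely with the floor. The main shedding enzymes ADAM10 and ADAM17 differed by less than 1.2-fold between the arrays. Of 12 measured ADAM genes, 0 were higher by 2-fold or more and 1 was lower by as much. Of 10 measured ADAMTS genes, 1 was at least 2-fold higher and 1 lower. Among all 12688 measured genes, 1.8% were higher by 2-fold or more and 2.25% were lower by as much. These counts of 1 are too small to be read against that background.

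**Figure D1:**
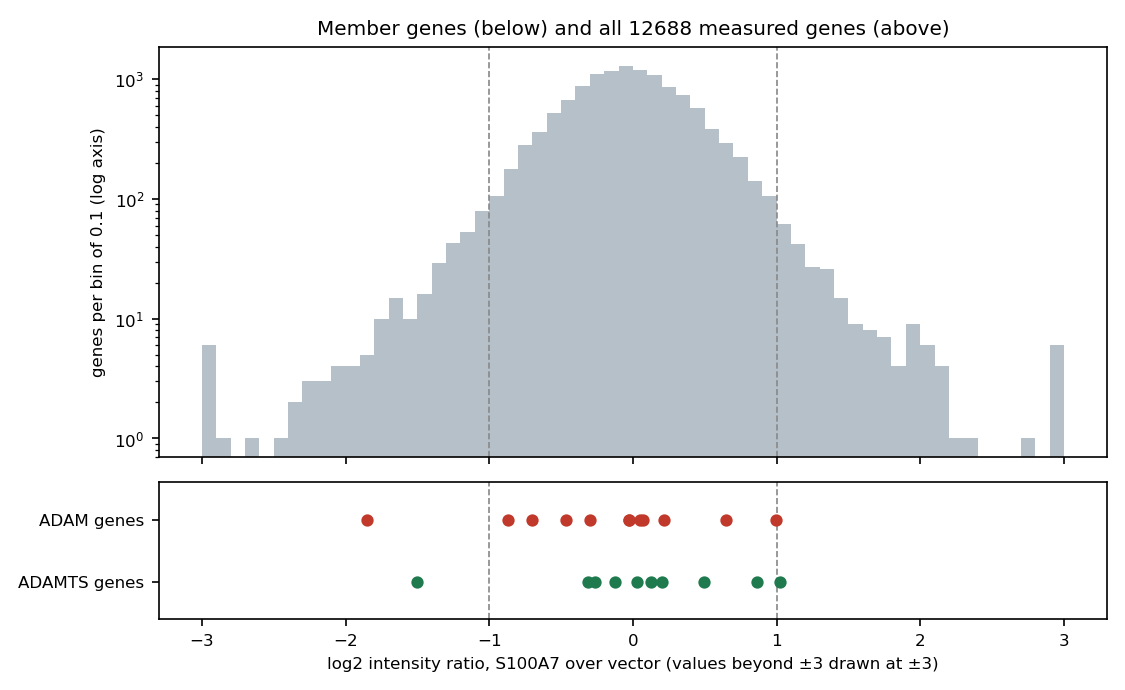
Log2 intensity ratio of S100A7 over vector for all 12688 measured genes (upper panel, histogram with bins of 0.1 and a log count axis) and for the 12 ADAM and 10 ADAMTS genes measured (lower panel, 1 point per gene, brightest probe set). Dashed lines mark 2-fold; ADAM33, ADAMTS6 and ADAMTS9 are the 3 points outside them, and ADAM9 at 0.99 sits just inside.

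At a lower line of 1.5-fold, 2 ADAM genes were higher (ADAM8, ADAM9) and 3 lower (ADAM12, ADAM22, ADAM33), and 2 ADAMTS genes were higher (ADAMTS9, ADAMTS15) and 1 lower (ADAMTS6). The values of ADAM12, ADAM33 and ADAMTS9 are bounds with 1 array below the floor, so their directions came largely with the floor. With signal required on both arrays ADAM12 was at -0.15, and its probe sets disagreed, as given below. Across all measured genes 8.12% were higher by that much and 10% lower. The median log2 ratio was -0.03 over the ADAM genes and 0.08 over the ADAMTS genes, against -0.04 over all measured genes. The sign of the ADAM median turned positive in settings including median centring (0.01).

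The 250 bases before the annotated start of 4 members are shown because each of these genes had at least 2 measured probe sets on the same side of 0 with the larger readings clearly apart: ADAMTS6 and ADAM15 were lower in S100A7 cells, ADAMTS12 and ADAM8 higher. ADAM9 also fits this description and its promoter is not shown. The 4 were chosen after the values were seen. Sequences are from RefSeq, build GRCh38.p14, written 5′ to 3′ along the gene's own strand, with capitals for any match, on either strand, to the motifs AP-1 (TGANTCA), NF-kB (its degenerate consensus), GC box (GGGCGG), the TATAAA element and the E-box (CACGTG). The positions are chr5:65481921-65482170 (minus strand) for ADAMTS6, chr1:155051066-155051315 (plus strand) for ADAM15, chr5:33891991-33892240 (minus strand) for ADAMTS12 and chr10:133276869-133277118 (minus strand) for ADAM8.
ADAMTS6: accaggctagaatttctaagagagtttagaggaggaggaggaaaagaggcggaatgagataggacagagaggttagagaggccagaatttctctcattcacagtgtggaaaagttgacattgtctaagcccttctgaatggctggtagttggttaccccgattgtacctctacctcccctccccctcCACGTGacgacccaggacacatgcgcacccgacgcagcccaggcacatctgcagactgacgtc
ADAM15: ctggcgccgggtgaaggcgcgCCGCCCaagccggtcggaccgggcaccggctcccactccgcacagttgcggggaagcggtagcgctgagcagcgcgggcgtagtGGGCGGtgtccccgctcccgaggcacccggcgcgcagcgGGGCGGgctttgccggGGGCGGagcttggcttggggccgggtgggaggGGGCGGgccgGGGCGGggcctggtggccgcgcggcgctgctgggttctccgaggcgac
ADAMTS12: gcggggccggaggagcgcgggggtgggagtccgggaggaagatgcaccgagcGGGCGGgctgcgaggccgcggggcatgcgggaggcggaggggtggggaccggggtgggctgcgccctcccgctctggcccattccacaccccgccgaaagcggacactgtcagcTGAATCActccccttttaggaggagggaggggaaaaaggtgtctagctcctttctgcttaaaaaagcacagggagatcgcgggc
ADAM8: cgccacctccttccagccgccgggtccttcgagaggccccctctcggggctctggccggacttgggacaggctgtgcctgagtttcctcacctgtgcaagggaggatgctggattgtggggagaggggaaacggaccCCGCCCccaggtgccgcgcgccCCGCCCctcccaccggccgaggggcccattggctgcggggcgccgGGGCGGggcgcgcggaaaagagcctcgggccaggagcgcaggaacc

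These stretches differ in composition. That of ADAMTS6 was 52.4% G and C with 8 CpG dinucleotides, against 68.4% and 21 for ADAMTS12, 73.6% and 23 for ADAM8, and 79.6% and 36 for ADAM15; the median over 35116 RefSeq promoters was 58% G and C. ADAMTS12 held an AP-1 match 84 to 78 bases before the start, and ADAMTS6 an E-box 63 to 58 bases before it. ADAM15 held GC boxes at 6 places, ADAM8 at 3 and ADAMTS12 at 1. The table gave a promoter for 23 of the 40 member genes. An AP-1 match was found in 1 of these 23 (6.57% of all promoters), an NF-kB match in 4 (9.96%), a GC box in 17 (42.6%), TATAAA in 1 (10.7%) and an E-box in 4 (6.34%). The median G and C content was 69.2% over the 23 member promoters, against 58% over all promoters. The set of all promoters was neither limited to genes on the array nor matched to the members by type of gene. The part of the G and C content in the motif counts was not tested. Matches to different motifs may overlap, and a match is a description of the letters, not a shown binding site.

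Among the catalytic ADAMs, ADAM9 had the highest log2 ratio. ADAM9 is a sheddase of broad expression that is found at raised levels in several carcinomas. Its probe set 202381_at read 4455 in S100A7 cells and 2238 in vector cells (log2 ratio 0.99), and 1555326_a_at read 2689 in S100A7 cells and 1674 in vector cells (1.61-fold higher). The third, 1570042_a_at, lay below the floor on both arrays at 46.6 in S100A7 cells and 50.6 in vector cells. Both measured probe sets were thus higher in S100A7 cells by more than the spread between probe sets. The 40 measured genes nearest to ADAM9 on chromosome 8 had a median log2 ratio of 0.20, and ADAM9 exceeded it by 0.80.

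ADAM8, a sheddase best known from leukocytes and also found in invasive breast tumours, read 454 in S100A7 cells and 289.7 in vector cells with 205180_s_at (1.57-fold higher). With 205179_s_at it read 336 in S100A7 cells and 202 in vector cells (1.66-fold higher). Both readings were above the floor on both arrays, and the log2 ratios, 0.65 and 0.73, lay close to each other. The genes around it on chromosome 10 had a median of 0.05.

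ADAM10, which cuts Notch receptors, cadherins and the amyloid precursor protein, read 5928 in S100A7 cells and 6054 in vector cells with 202603_at. With 214895_s_at it read 1386 in S100A7 cells and 1451.5 in vector cells, and with 202604_x_at 1089 in S100A7 cells and 1273 in vector cells. The log2 ratios of the 3, from -0.22 to -0.03, stayed within the spread between probe sets. ADAM17, the TNF-alpha converting enzyme, which also releases several EGF receptor ligands, read 1681 in S100A7 cells and 1446 in vector cells with 213532_at. Its other 2 probe sets read 645 and 552 in S100A7 cells, against 585 and 491 in vector cells. All 3 log2 ratios of ADAM17 were slightly above 0 (0.14 to 0.22), against -0.17 for its chromosomal neighbours.

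ADAM15, called metargidin for the integrin-binding motif in its disintegrin domain, was lower by a moderate amount. It read 1992 in S100A7 cells and 2752 in vector cells with 1555896_a_at (1.38-fold lower), and 1322 in S100A7 cells and 1948 in vector cells with 217007_s_at (1.47-fold lower). Both probe sets were well above the floor. The neighbouring genes on chromosome 1 had a median of 0.08, so the difference was not shared by them. ADAM19, or meltrin beta, read 521 in S100A7 cells and 496 in vector cells with 209765_at, within the spread between probe sets. With 221128_at it read 25.7 in S100A7 cells and 71.2 in vector cells (at least 1.03-fold lower), barely above the vector floor.

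The remaining catalytic ADAMs were dim. ADAM33, which is best known as an asthma susceptibility gene, read 22.2 in S100A7 cells and 249 in vector cells, at least 3.61-fold lower. That rests on 1 probe set, 233868_x_at, whose suffix _x_at stands for probes that can match several transcripts. The other ADAM33 probe set, 232570_s_at, read 2.02 in S100A7 cells and 1.86 in vector cells, below the floor on both. ADAM33 therefore has the lowest log2 ratio of all members but only 1 of its probe sets reached the floor on any array. ADAM12, or meltrin alpha, had 4 measured probe sets that disagreed. The one taken as brightest, 202952_s_at, read 20.9 in S100A7 cells and 126 in vector cells (at least 1.83-fold lower), while 204943_at read 104 in S100A7 cells and 61.6 in vector cells (at least 1.46-fold higher). Only 226777_at was above the floor on both arrays, at 72.7 in S100A7 cells and 81.0 in vector cells (1.11-fold lower). The fourth, 213790_at, read 54.1 in S100A7 cells and 80.1 in vector cells (at least 1.16-fold lower). With brightness taken from linear intensities 204943_at represents the gene, so no direction can be given for ADAM12. ADAM28, which lymphocytes express, read 57.5 in S100A7 cells and 84.9 in vector cells with its 1 measured probe set (at least 1.23-fold lower).

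**Figure D2:**
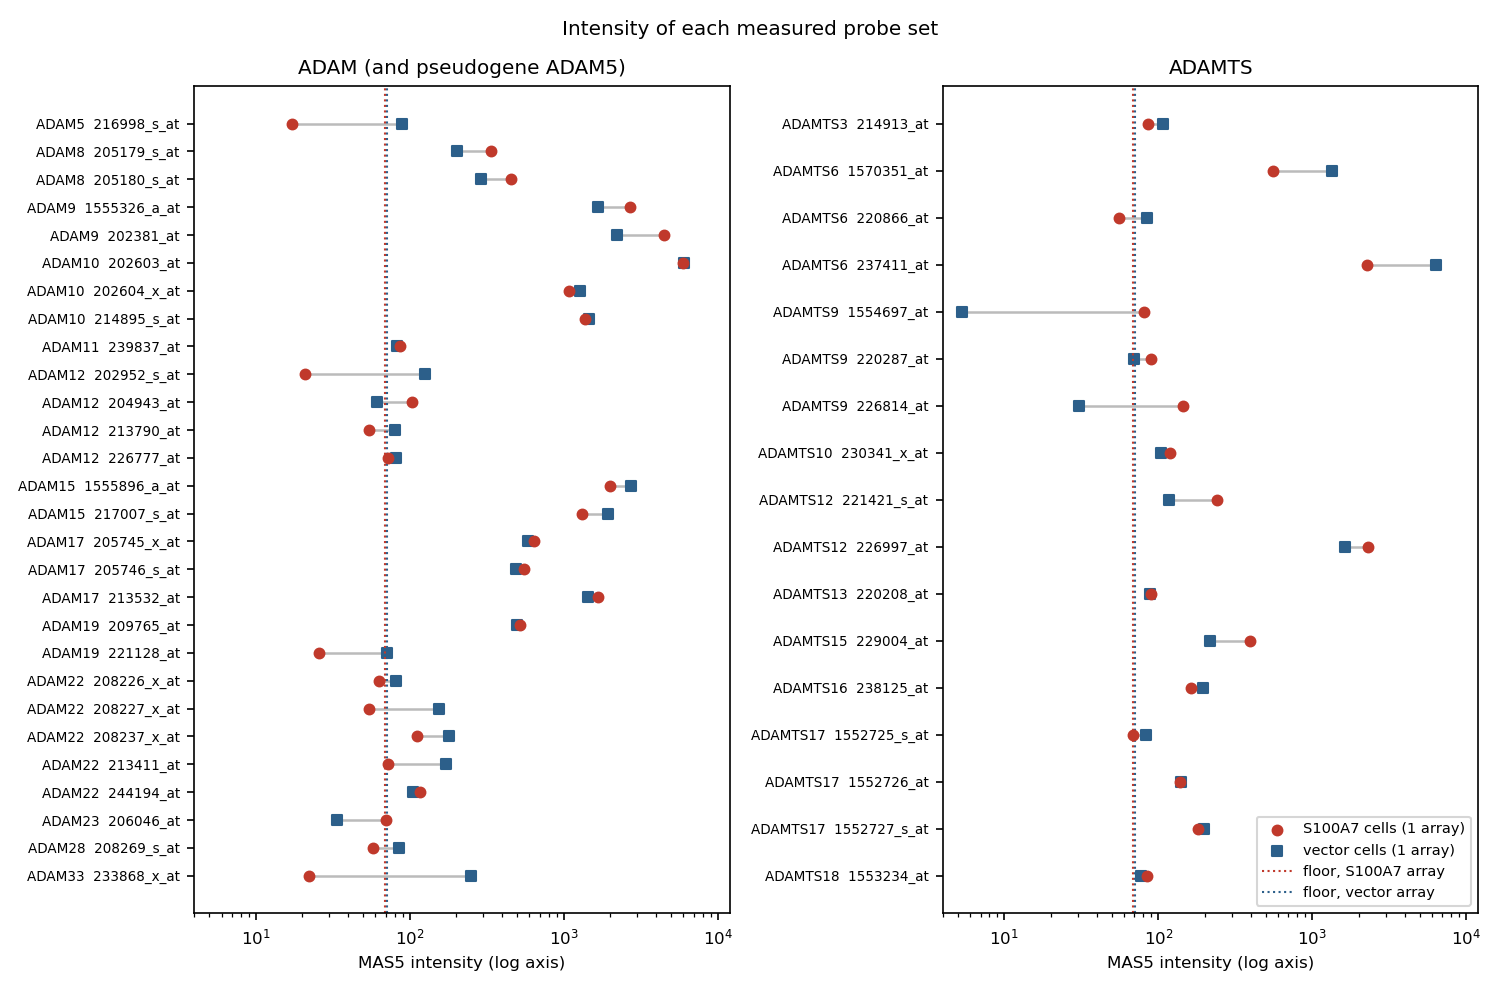
MAS5 intensity (log axis) of each measured probe set of ADAM genes (left) and ADAMTS genes (right), with 1 circle for the S100A7 array and 1 square for the vector array; dotted lines are the floors, 69.0 on the S100A7 array and 71.0 on the vector array. Among genes with both readings above the floor, the widest gap is that of ADAMTS6 (2259 in S100A7 cells, 6399 in vector cells). Next come ADAM22 with 213411_at (72.9 in S100A7 cells, 174 in vector cells) and ADAMTS12 with 221421_s_at (241 in S100A7 cells, 117 in vector cells). ADAM9 follows (4455 in S100A7 cells, 2238 in vector cells). Most other wide gaps have 1 side below the floor.

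The non-catalytic ADAMs, which lack a working zinc site and act as adhesion proteins or receptors, chiefly in the nervous system, were dim. ADAM22, a receptor for the neuronal protein LGI1, had 5 measured probe sets. Its brightest, 208237_x_at, read 111 in S100A7 cells and 181 in vector cells (1.63-fold lower). The probe set 213411_at read 72.9 in S100A7 cells and 174 in vector cells (2.38-fold lower), and 208227_x_at read 54.9 in S100A7 cells and 156 in vector cells (at least 2.25-fold lower). In contrast, 244194_at read 116 in S100A7 cells and 105 in vector cells. Of the 5, 4 were lower in S100A7 cells, and the 40 nearest genes on chromosome 7 were lower too, with a median of -0.40. Relative to that median the log2 ratio of ADAM22 was -0.30. ADAM11 read 86.1 in S100A7 cells and 83.3 in vector cells. ADAM23 reached the floor on the S100A7 array only (69.8, against 33.6 in vector cells), and since that reading is under the vector floor it gives no fold.

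The ADAMs of the testis, which act in sperm maturation and fertilisation, were not measured in either line. ADAM2, ADAM18, ADAM20, ADAM21, ADAM30 and ADAM32 had 10 probe sets, which read from 2.25 to 60.0 in S100A7 cells and from 10.9 to 64.4 in vector cells. Of 7 other testis markers 1 was measured, ACRV1, at 76.0 in S100A7 cells and 114 in vector cells. Of the pseudogenes, ADAM5 was measured, with 17.3 in S100A7 cells and 88.9 in vector cells (at least 1.29-fold lower), and ADAM3A, ADAM3B and ADAM6 were not.

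Among the secreted enzymes, ADAMTS6 had the largest difference. ADAMTS6 takes part in microfibril and heart development, from work in mice. Its probe set 237411_at read 2259 in S100A7 cells and 6399 in vector cells, and 1570351_at read 559.8 in S100A7 cells and 1352 in vector cells (2.41-fold lower). The third, 220866_at, was dim, at 55.7 in S100A7 cells and 83.9 in vector cells (at least 1.22-fold lower). All 3 were lower in S100A7 cells, and the 2 bright ones differed from each other by less than the spread between probe sets. Its chromosomal neighbours had a median log2 ratio of 0.00. In every alternative setting in which it was computed the log2 ratio stayed between -1.50 and -1.27. Several of these settings reuse the same bright probe set on the same arrays and cannot move it. The range is therefore no measure of the spread between cultures.

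ADAMTS12, a protease that can degrade the cartilage protein COMP, lies on chromosome 5 as ADAMTS6 does and went the other way. It read 2284 in S100A7 cells and 1620.1 in vector cells with 226997_at (1.41-fold higher), and 241 in S100A7 cells and 117 in vector cells with 221421_s_at (2.07-fold higher). Both probe sets were above the floor on both arrays. Their log2 ratios, 0.50 and 1.05, differ from each other by more than the spread between probe sets, so the direction is shared and the size is not settled.

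Of the 7 proteoglycan-cleaving ADAMTS genes, 2 were measured. ADAMTS15 was measured on both arrays and was higher in S100A7 cells. ADAMTS9 was measured on the S100A7 array only, so its direction came largely with the floor. ADAMTS15, an enzyme that cleaves versican and aggrecan, read 393 in S100A7 cells and 216 in vector cells with 229004_at (1.82-fold higher), and its neighbours on chromosome 11 had a median of -0.25. Its other probe set, 1553427_at, was far below the floor at 5.50 in S100A7 cells and 12.98 in vector cells. ADAMTS9, a versican-cleaving enzyme related to the worm gene gon-1, read 144 in S100A7 cells and 30.5 in vector cells with 226814_at (at least 2.03-fold higher). Its probe set 220287_at read 89.6 in S100A7 cells and 69.2 in vector cells (at least 1.26-fold higher), and 1554697_at read 81.2 in S100A7 cells and 5.34 in vector cells (at least 1.14-fold higher). The fourth, 233785_at, was below the floor on both arrays, at 16.2 in S100A7 cells and 40.3 in vector cells. ADAMTS9 thus passed the floor on the S100A7 array alone. At 144, 226814_at was clear of that array's floor of 69.0, whereas 220287_at and 1554697_at passed it by little. With a floor at the 30th percentile the brightest probe set became 220287_at, and the log2 ratio of the gene was then 0.37.

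ADAMTS1, ADAMTS4, ADAMTS5, ADAMTS8 and ADAMTS20, the other members of that class, were below the floor on both arrays. Their 12 probe sets read from 1.75 to 46.1 in S100A7 cells and from 1.36 to 25.6 in vector cells. At these readings no difference was detectable. Of the procollagen-trimming enzymes, ADAMTS2 and ADAMTS14 were likewise below the floor, and ADAMTS3 read 85.8 in S100A7 cells and 107 in vector cells (1.24-fold lower).

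The other ADAMTS genes were dim, with small differences where measured. ADAMTS13, which cleaves von Willebrand factor and is made mainly in liver, read 89.8 in S100A7 cells and 88.0 in vector cells. ADAMTS10, mutated in Weill-Marchesani syndrome, read 119 in S100A7 cells and 104 in vector cells, and ADAMTS18 read 84.2 in S100A7 cells and 77.0 in vector cells. ADAMTS16 read 163 in S100A7 cells and 196 in vector cells, and ADAMTS17, another Weill-Marchesani gene, read 181 in S100A7 cells and 197 in vector cells with its brightest probe set. ADAMTS19 was below the floor. None of these 5 measured genes reached 1.25-fold.

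**Figure D3:**
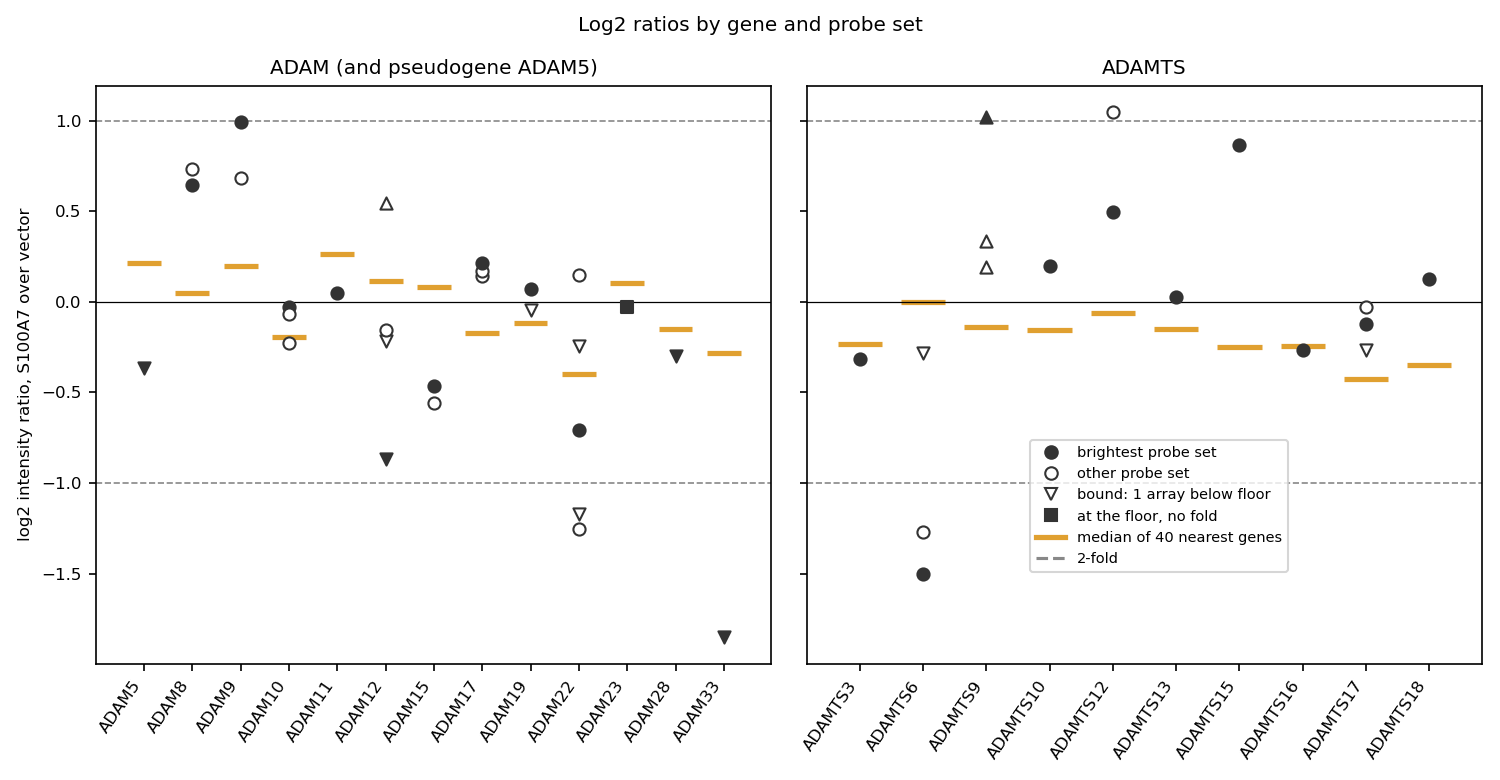
Log2 intensity ratio of S100A7 over vector for each measured probe set, by gene, for ADAM genes (left) and ADAMTS genes (right). Filled symbols are the brightest probe set, triangles pointing up or down are bounds with 1 array below the floor, the filled square is ADAM23 at the floor, and orange bars are the median of the 40 nearest measured genes; ADAM9, ADAM8 and ADAM15 have probe sets close together, whereas those of ADAM12 and ADAM22 spread across 0.

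Probe sets of a gene could be compared for 12 member genes, pseudogenes included. In 9 of the 12 (75%) all measured probe sets lay on the same side of 0, against 56.9% of the 6465 genes with at least 2 measured probe sets. The exceptions were ADAM12, ADAM19 and ADAM22. A probe set measured on 1 array only has its side of 0 largely set by the floor. This held for all 3 measured probe sets of ADAMTS9, so the shares are no free check of direction. The pooled standard deviation between probe sets was 0.42 over these 12 genes, against 0.36 over all 6465. By family it was 0.41 over 8 ADAM genes and 0.45 over 4 ADAMTS genes. Of the 27 measured ADAM probe sets, 15 carry a suffix for probes that can match several transcripts (_x_at, _s_at or _a_at), and 9 gave bounds; of the 17 ADAMTS probe sets, 4 carry such a suffix and 5 gave bounds.

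**Figure D4:**
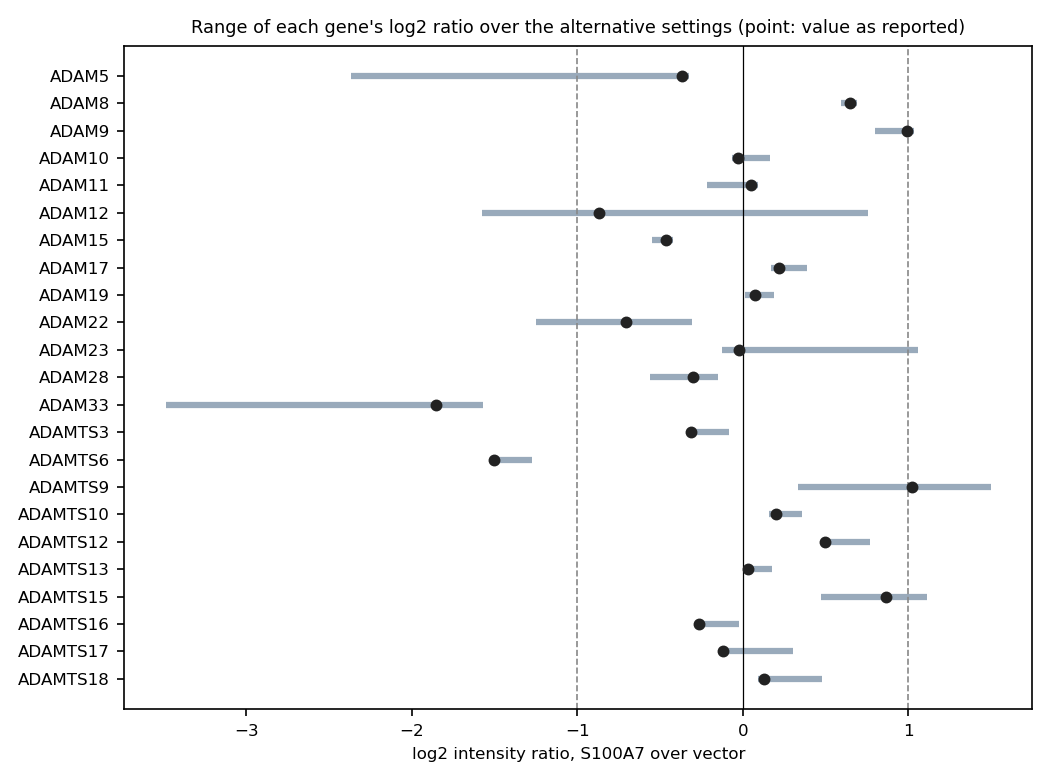
Log2 intensity ratio of S100A7 over vector as reported (points) for the 23 measured member genes, with the range over the alternative settings (bars); dashed lines mark 2-fold. ADAMTS6 stays beyond 2-fold throughout, ADAM33 stays below -1 wherever it is measured, and ADAM5, ADAM12, ADAM23, ADAM33 and ADAMTS9 have long bars.

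Genes that work with the ADAMs differed in both directions. Of 26 listed partners and regulators 23 were measured; 0 passed 2-fold upwards in S100A7 cells and 1 downwards, against 1.8% and 2.25% of all measured genes, and the median log2 ratio was 0.07. At 1.5-fold, 3 were higher and 3 lower, against 8.12% and 10% of all measured genes. The 1 lower was TSPAN33, a tetraspanin that binds ADAM10, at 218 in S100A7 cells and 450.1 in vector cells (2.07-fold lower). The median of its neighbours on chromosome 7 was -0.36, and relative to it TSPAN33 was at -0.69, under 2-fold. TSPAN14, another listed tetraspanin, went the other way, at 863 in S100A7 cells and 456 in vector cells (1.89-fold higher). Its second probe set had a log2 ratio of 0.16. With their brightest probe sets TSPAN5, TSPAN15 and TSPAN17 were lower, by at most 1.38-fold. Among inhibitors, TIMP3, which blocks ADAM17 and several ADAMTS enzymes, read 1611 in S100A7 cells and 955 in vector cells (1.69-fold higher), and its 4 probe sets had log2 ratios from 0.39 to 0.77. TIMP1 read 2713 in S100A7 cells and 4245 in vector cells (1.56-fold lower). FURIN, a convertase that removes prodomains, read 529 in S100A7 cells and 915 in vector cells (1.73-fold lower). The neighbours of TIMP1 and FURIN were lower too, with medians of -0.44 and -0.41, whereas those of TIMP3 were at -0.13. RHBDF2, which brings ADAM17 to the cell surface, read 931 in S100A7 cells and 666 in vector cells (1.40-fold higher).

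Of 44 genes for ADAM substrates with a probe set, 34 were measured; 3 passed 2-fold upwards in S100A7 cells and 1 downwards, against 1.8% and 2.25% of all measured genes, and the median was 0.09. TNFRSF1B, a TNF receptor that is shed from the cell surface, was the highest, at 538 in S100A7 cells and 189.8 in vector cells (2.83-fold higher, 1 measured probe set). TGFA, an EGF receptor ligand, was 2.40-fold higher, and NRG1, a ligand of the related ERBB receptors, 2.00-fold higher at 4726 in S100A7 cells and 2360.1 in vector cells. The 5 NRG1 probe sets had log2 ratios from 0.33 to 1.21, and 1 of the 3 TGFA probe sets was at -0.10. MET was 2.06-fold lower, with its 4 probe sets from -1.11 to -0.82. MET also lies on chromosome 7, where its neighbours had a median of -0.44, and relative to them it was at -0.61. HBEGF, another shed EGF receptor ligand, read 11492 in S100A7 cells and 11240 in vector cells. Of 11 integrins that bind disintegrin domains 8 were measured, 0 of them outside 2-fold, with a median of 0.33.

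For the ADAMTS enzymes, 14 of 26 substrate genes were measured; 1 passed 2-fold upwards in S100A7 cells and 0 downwards, beside the same 1.8% and 2.25%, and the median was 0.01. The 1 higher was COL5A1, a chain of collagen V, at 574 in S100A7 cells and 188 in vector cells. VCAN, the proteoglycan versican, read 88.4 in S100A7 cells and 135 in vector cells (1.53-fold lower). Of 18 partners and processing genes 14 were measured; 1 passed 2-fold upwards in S100A7 cells and 1 downwards, and the median was 0.14. ADAMTSL4, an ADAMTS-like protein without a protease domain, read 353 in S100A7 cells and 126 in vector cells (2.79-fold higher), its other probe set being at the floor. THSD4, another of this kind, read 139 in S100A7 cells and 372 in vector cells (2.67-fold lower), and the second THSD4 probe set had a log2 ratio of -0.36. The neighbours of THSD4 on chromosome 15 had a median of -0.36, and relative to them it was at -1.05. The list medians stand beside -0.04 for all measured genes.

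**Figure D5:**
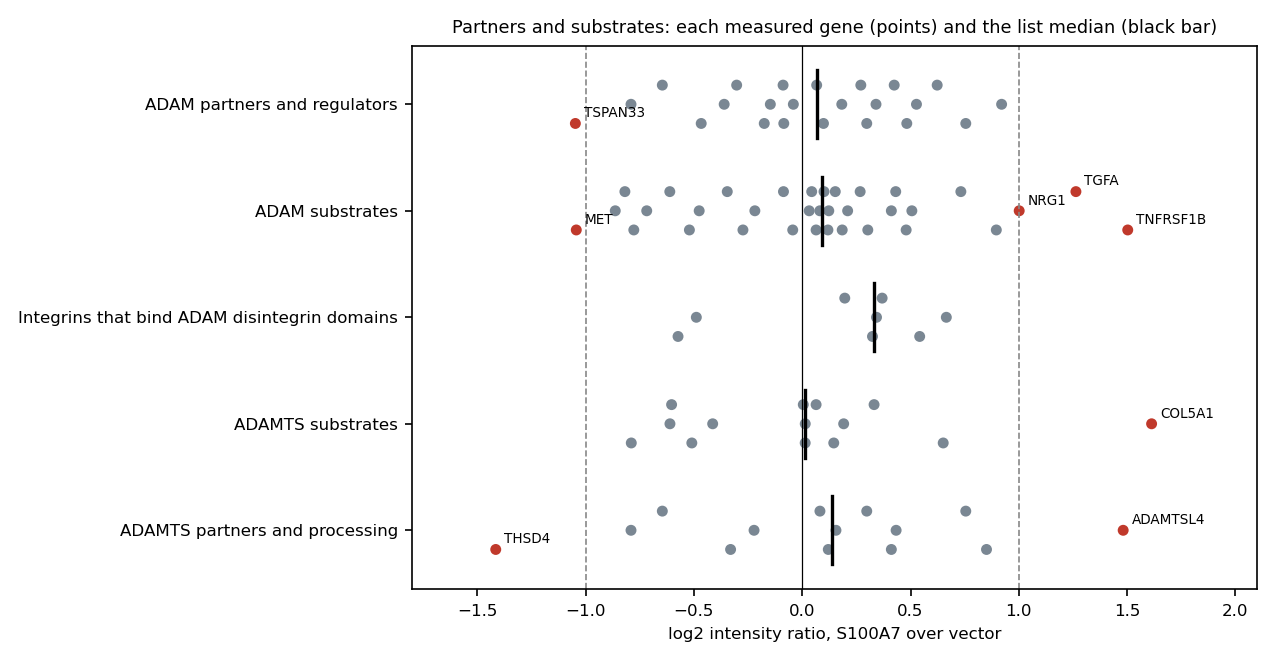
Log2 intensity ratio of S100A7 over vector for each measured gene (points) of 5 lists of partners and substrates, with the median of each list (black bar). Red points are at least 2-fold apart and named: TSPAN33, MET and THSD4 are lower in S100A7 cells, and TGFA, NRG1, TNFRSF1B, COL5A1 and ADAMTSL4 higher.

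Markers of other cells were mostly below the floor. Of 6 blood and immune genes with a probe set 2 were measured, CD79A at 202 in S100A7 cells and 315 in vector cells and HBB at 82.9 in S100A7 cells and 115 in vector cells. Of 9 genes of fibroblasts, endothelium, nerve and muscle 3 were measured, 0 of them outside 2-fold, against 1.8% higher and 2.25% lower among all measured genes. COL1A1 read 487 in S100A7 cells and 842 in vector cells (1.73-fold lower). Its 3 probe sets disagreed, with log2 ratios from -0.79 to 0.76. PECAM1 read 168 in S100A7 cells and 132 in vector cells, and CDH5 79.0 in S100A7 cells and 24.8 in vector cells. Summed intensities over all probe sets of each list were 526 in S100A7 cells and 805 in vector cells for blood, and 1787 in S100A7 cells and 1988 in vector cells for the other tissues.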

How the data were processed

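The authors deposited 1 linear intensity per probe set and array, computed by MAS5 per the submitters' processing notes. The sources used here name neither its version nor its scaling target. The 2% trimmed mean of the arrays was equal (500.1), and no further scaling was applied. Low intensities were handled by the floor at each array's 50th percentile, since differences near background depend on it. Genes were named by Entrez identifier through the platform annotation and a RefSeq table on GRCh38.p14, which matched 41037 of 41091 probe sets with 1 gene; 1801 with several genes, 11721 with none and 62 controls were left out. Columns of values left unused numbered 0. Chromosomal neighbours are the 20 nearest measured genes on each side. The brightest probe set had the highest mean floored log2 intensity.

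Every measured member was named, and from each list the members at least 2-fold apart; other list genes were chosen after their values were seen. The members and lists were chosen with earlier results of these data known. Alternatives covered the floor, a pseudocount, signal on both arrays, normalization between arrays, subtraction of the chromosomal neighbours, the rule for several probe sets and the fold threshold. The steps were tested on simulated data with shifts above 2-fold and less noise than the spread between probe sets here. That test checks the computation, not the error of the calls in these data. Computation used Python 3.11.15, pandas 2.3.3 and numpy 2.4.6. The number of arrays, 1 per group, limits the precision.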

Additional observations from a re-analysis of the deposited data

How the results depend on the processing

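Counts at 2-fold depended on how dim probe sets were treated and on which probe set then stood for the gene. For ADAM genes the count of 1 became 2 with median centring (ADAM9 joined), with the floor lowered to the 30th percentile and with a pseudocount of 32, 3 with no floor, 0 with a floor at the 70th percentile or with signal required on both arrays, and 5 at 1.5-fold. For ADAMTS genes the count of 2 became 1 with either of those floors, with the median over probe sets and with signal required on both arrays, 4 with no floor and 0 at 3-fold. It became 3 with the chromosomal neighbours subtracted and 3 at 1.5-fold, ADAMTS15 joining in both. The share of all genes this far apart moved too. It was 4.05% as reported, 9.89% with the lower floor, 2.08% with the higher and 21.7% with no floor. With the pseudocount it was 5.96%, with both arrays 3.45%, with median centring 4.04% and at 1.5-fold 18.2%. The median over probe sets gave 3.18%, subtracted neighbours 3.65% and 3-fold 0.80%. With no floor, 18 genes of each family were counted. The member counts are too small to be read against these shares. The ADAMTS median log2 ratio became 0.47 with a floor at the 70th percentile, over 3 genes, because fewer genes were measured. Of 228 values of single member genes under 11 settings, 204 moved by less than the spread between probe sets (0.36) and 24 by more. The sign was kept in 215 of the 228, and 0 of the genes at least 2-fold apart changed sign. Part of the 204 was fixed in advance. For a gene with a bright probe set, the settings of the floor return the same value from the same arrays. The ADAM12 value ran from -1.58 to 0.75, and ADAMTS9 was at 0.34 with the median over probe sets. Without probe sets of the 3 suffixes ADAM33 could not be computed, and ADAM22 was at -1.25. The choice of brightest probe set by linear intensity was added after seeing the data. No paired analysis was possible because each group has 1 array.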

Other observations

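Antisense and divergent transcripts next to member genes were at or below the floor. Of the 5 probe sets of ADAMTS9-AS2, 1 read 71.0 in S100A7 cells and 60.3 in vector cells, and the other 4 were below the floor on both arrays, as were both probe sets of ADAMTS9-AS1 (7.84 and 1.74 in S100A7 cells, 13.2 and 0.643 in vector cells). ADAMTS16-DT read 3.42 in S100A7 cells and 30.5 in vector cells, and ADAM7-AS2 read 30.8 in S100A7 cells and 6.75 in vector cells. A probe set shared by ADAM29 and another gene read 7.0 in S100A7 cells and 6.18 in vector cells.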
